A study of Mus musculus with 19 samples.

Results

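The comparison described here set the forebrain transcripts of mice lacking EphA4 against those of wild-type littermates when both had been left undisturbed. Its arrays were chosen by their titles, which gave 4 knockout control arrays and 4 wild-type control arrays out of 19 arrays in the series. The labels give the genotypes as EphA4 knockout and WT, the strain of all mice as Mixed BL6/10 and the lighting as 12 h of light and 12 h of dark. The sources used here do not say how the knockout allele was made, or the age and sex of the mice. The other 11 arrays came from mice deprived of sleep for 6 h, 5 knockout and 6 wild type. They are used below to set the same genotype difference in other samples beside the undisturbed difference. The main fit took all 19 arrays together, so these 11 also enter the spread behind its SEs, p-values and intervals for the undisturbed difference. The labels treat every array as a separate sample without saying whether it was a separate mouse, so the spread behind the p-values is that between samples and may be technical.

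EphA4 is a receptor tyrosine kinase of the Eph family, whose ligands, the ephrins, are themselves bound to the surface of neighbouring cells. Binding triggers signals that act on the cytoskeleton of the cell that carries the receptor. In the developing brain EphA4 is best known for repelling growing axons, and in the adult forebrain for the shape of dendritic spines on neurons in contact with ephrin-bearing astrocytes and for the astrocytes' uptake of glutamate. Comparing undisturbed mice asks what the lack of this receptor leaves changed in the forebrain transcriptome at baseline, before any challenge to sleep.

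The values were log2 expression, 1 value per probe set and array, for 8751 probe sets. Of these, 1308 were annotated with 1 gene symbol (1121 different genes). Another 1178 listed more than 1 symbol, so that their signal could not be assigned to a single gene, and 6265 had no symbol in the annotation used. The series' own description says that its data tables are incomplete. No probe set was annotated to Epha4, so its level could not serve as a check of the genotype labels. The tissue could be checked in part only, since 2 of 53 marker genes of brain cell types were measured under a symbol of their own. Map2, the dendritic microtubule protein of neurons, lay between 11.7 and 11.8 in all 8 arrays, near the top of the scale of 2.18 to 14.2. Slc32a1, which loads GABA into the vesicles of inhibitory neurons, lay between 7.11 and 7.53. The markers of excitatory neurons, astrocytes, oligodendrocytes, microglia and endothelium had no probe set of their own, so a different mix of cells and a different level per cell cannot be told apart here.

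Sequences are shown for 5 of the microRNA genes that had a probe set of their own and are described below, because for them the measured gene is defined by its short product. Mature sequences were taken from the RefSeq table for GRCm38.p6, which held a mature sequence for 37 of the 44 microRNA genes measured under 1 symbol. They are written 5′ to 3′, with the seed, bases 2 to 8, in capitals. The seed is the stretch by which a microRNA mainly recognises its target messengers. The first 4 products come from a single imprinted microRNA cluster that is described below.
mmu-miR-376a-3p: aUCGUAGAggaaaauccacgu
mmu-miR-376a-5p: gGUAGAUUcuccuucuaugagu
mmu-miR-409-3p: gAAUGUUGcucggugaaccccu
mmu-miR-409-5p: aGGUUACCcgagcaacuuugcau
mmu-miR-219a-5p: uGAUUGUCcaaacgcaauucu
mmu-miR-3473c: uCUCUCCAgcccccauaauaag
mmu-let-7f-5p: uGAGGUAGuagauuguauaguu
mmu-let-7f-1-3p: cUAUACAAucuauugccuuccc
These differ in their seeds throughout. In the RefSeq table the seed of miR-376a-3p, that of miR-376a-5p, that of miR-219a-5p and both of miR-409 were each carried by 1 mature mouse microRNA, whereas the seed of let-7f-5p was shared by 11, nearly all of them let-7 family members. A probe set for a microRNA gene may read its precursor or host transcript, so its values are not levels of the mature product.

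No transcript separated the genotypes after adjustment. Of 8751 probe sets, 0 had an adjusted p under 0.05 in limma's moderated test (0.0%), and the smallest adjusted p was 0.79. At an unadjusted p under 0.05 there were 476 probe sets (5.44%), a share close to the 5% that the threshold itself sets. Of these, 319 had a higher mean in the knockout (3.65%) and 157 a lower one (1.79%). In 191 probe sets the 4 knockout values all lay above the 4 wild-type values (2.18%), and in 131 they all lay below them (1.5%). With the 8 control arrays fitted alone, 589 probe sets had an unadjusted p under 0.05 in limma's test. The smallest adjusted p of that fit was 0.62.

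The differences were small and, for most probe sets, bounded closely. The median difference over all probe sets was 0.01 on the log2 scale, knockout minus wild type, and the median standard error was 0.11. For 7321 probe sets (83.7%) the whole 95% interval of the difference lay within 0.5 log2 units of 0, that is, within 1.41-fold, and for 8704 (99.5%) it lay within 1 unit. Among the 1121 named genes the interval lay within 0.5 units for 1047 (93.4%). The estimates ran from -1.04 to 0.76. They exceeded 0.5 in size for 40 probe sets, of which 2 were named genes, Mir376a (-0.50) and the immunoglobulin light-chain segment Igkv9-120 (0.53, unadjusted p = 0.408 in limma's test).

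**Figure D1:**
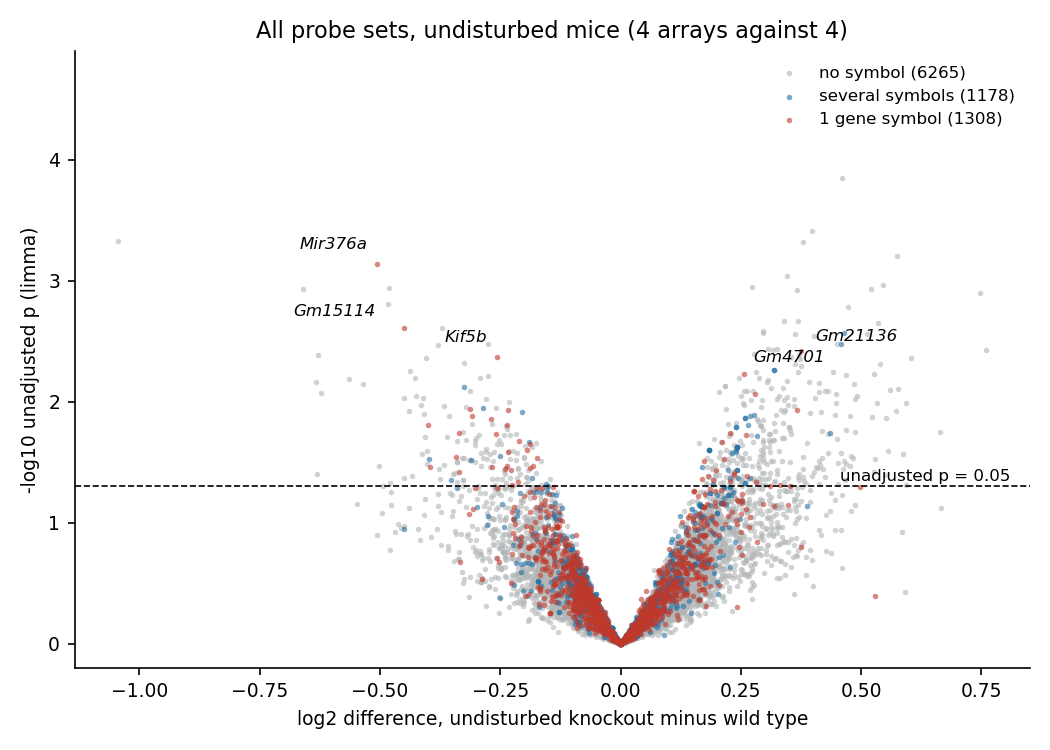
Each point is 1 of 8751 probe sets: the horizontal axis gives the log2 difference of the undisturbed knockout from the wild type (4 arrays against 4) and the vertical axis -log10 of limma's unadjusted p, with colours for 1 gene symbol, several symbols and no symbol. Of the 476 points above the dashed line 384 have no symbol, and 0 probe sets had an adjusted p under 0.05.

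The arrays themselves were much alike. Correlations over all probe sets ran from 0.9886 to 0.9931 in the 12 pairs of the same genotype and from 0.9891 to 0.9927 in the 16 pairs of different genotype. The array medians were 5.93 to 6.04 in the knockout and 5.92 to 5.96 in the wild type, a difference of 0.0388 in their means (two-sided exact permutation test, p = 0.2, where 4 against 4 cannot go below 0.0286). Knockout replicate 2 was the least like the other control arrays (median correlation 0.9894) and got the lowest weight of the 8 when arrays were weighted by their fit (0.5726). Without it 497 probe sets had an unadjusted p under 0.05 and the smallest adjusted p was 0.2155.

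The lean toward higher values in the knockout depended on level and on scaling. Among the 5 groups of probe sets ordered by mean level, the difference was positive for 51.8% of the dimmest, for 62.6%, 62.3% and 58.5% of the middle 3, and for 38.0% of the brightest. On the deposited values 319 of the 476 probe sets (67.0%) were the higher ones. After quantile normalization of the deposited probe sets the split was 238 higher and 218 lower, and with each array centred on its median it was 198 higher and 284 lower. Median centring lowered every difference by 0.0388, the gap between the group means of the array medians. Where a scaling turned the sign of the median of a gene list, its value is given beside that median below.

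**Figure D2:**
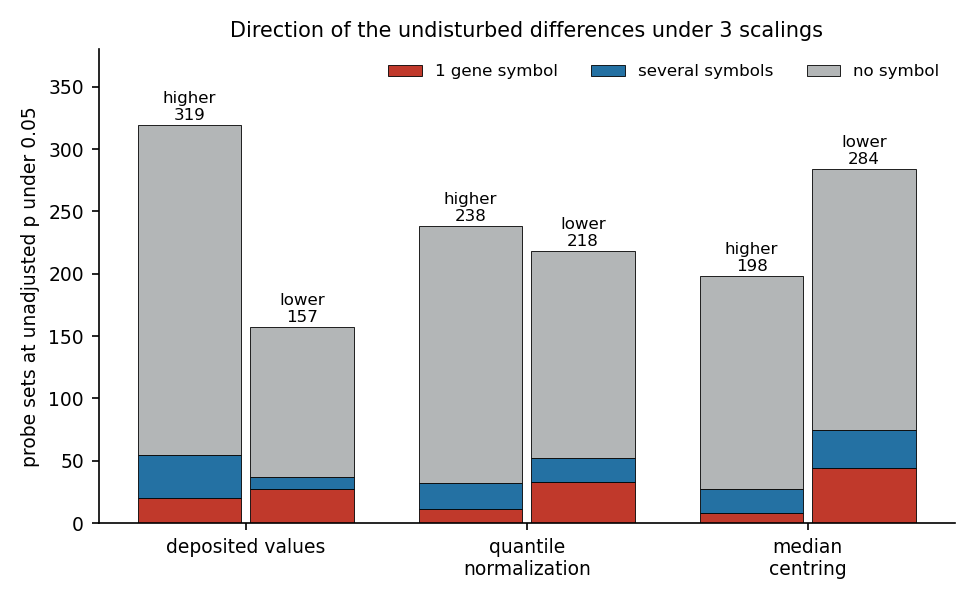
Bars give the number of probe sets at an unadjusted p under 0.05 with a higher or a lower mean in the undisturbed knockout, under the deposited values, quantile normalization and median centring, with colours for the annotation class. The count of higher probe sets falls from 319 to 238 and 198, and that of lower ones goes from 157 to 218 and 284.

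Transcripts with a name were no more frequent among these than those without. Of 1121 genes with a symbol of their own 44 had an unadjusted p under 0.05 (3.93%, against 5.44% of all probe sets), 20 higher and 24 lower in the knockout. Among probe sets with several symbols it was 45 of 1178 (3.82%), 35 higher and 10 lower, and among those with no symbol 384 of 6265 (6.13%), 264 higher and 120 lower. With identical probe sets tested once, those with several symbols were 23 higher and 9 lower, and those with no symbol 259 and 118. All named genes below had an adjusted p of 0.79 or more in limma's test, so their values are given as measured levels, and none is a call.

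The EphA4 pathway was hardly represented. Of 14 Eph receptors and 8 ephrins, 0 were measured under a symbol of their own, and of 41 downstream effectors and axon guidance genes 3 were. Cfl1, or cofilin, the actin-severing protein through which Eph signals reshape spines, read 11.28, 11.27, 11.28 and 11.32 in wild-type replicates 1 to 4 and 11.30, 11.49, 11.28 and 11.27 in the knockout. Apart from knockout replicate 2 the arrays overlapped closely, and without that array the difference of 0.05 (SE 0.06; limma's unadjusted p = 0.468) went below 0. Chn1, or alpha-chimaerin, a Rac-inactivating protein that binds activated EphA4 in axon guidance, differed by -0.01 (95% interval -0.18 to 0.17), and Anks1, an adaptor that binds Eph receptors, by 0.04 (-0.16 to 0.23). For both genes and for cofilin, limma's interval excluded a change of 0.5 in either direction.

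Genes of the excitatory and inhibitory synapse gave few values too. The NMDA receptor subunits Grin2c and Grin2d differed by -0.16 and -0.01, and Shank3, a scaffold of the postsynaptic density, by 0.04, all with overlapping arrays. Of 2 measured GABA genes, Slc32a1 differed by 0.01. The other was Abat, the enzyme that breaks GABA down, which read 7.75, 7.92, 7.71 and 7.86 in the wild type and 7.60, 7.62, 7.70 and 7.67 in the knockout. All 4 knockout values of Abat lay below all 4 wild-type values, by a mean of -0.16 (SE 0.08; limma's unadjusted p = 0.0713, adjusted p = 0.87), whereas after sleep deprivation its difference was 0.07.

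Among named protein-coding genes the smallest p belonged to Kif5b, the heavy chain of a conventional kinesin that carries mitochondria and vesicles along axons and dendrites. It read 5.83, 5.87, 5.79 and 6.01 in the wild type and 5.70, 5.54, 5.51 and 5.72 in the knockout. The groups did not overlap, and the mean was 0.84-fold that of the wild type (log2 difference -0.26 ± 0.08, SE; limma's unadjusted p = 0.00424, adjusted p = 0.82). Of 39 motor, tubulin and related cytoskeletal genes 5 were measured under 1 symbol and all 5 had a negative difference. Their median was -0.05, against 0.01 over all probe sets and -0.03 over the brightest of the 5 groups by level. Without knockout replicate 4 the median was -0.10, with 1 of the 5 positive. The others were Actg1 (cytoplasmic actin) at -0.09, Tuba1a (a tubulin of postmitotic neurons) at -0.05, Wdr78 (a part of ciliary dynein) at -0.05 and Tuba1b, a related tubulin, at -0.00, whose sign turned on leaving out any of several arrays.

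Foxj2, a forkhead transcription factor, read 6.13, 5.98, 5.88 and 5.86 in the wild type and 5.65, 5.71, 5.69 and 5.58 in the knockout, with no overlap (log2 difference -0.31 ± 0.11, SE; limma's unadjusted p = 0.0131). Maf, a basic leucine zipper factor of cortical interneurons and microglia, read 6.36, 6.57, 6.49 and 6.31 against 6.20, 5.96, 6.46 and 6.04 (-0.27 ± 0.10; limma's unadjusted p = 0.0140). Knockout replicate 3 lay within the wild-type range of Maf. Zhx1, a zinc finger and homeobox repressor, differed by -0.18, and the zinc finger gene Zfp820 by -0.40 at a low level, 4.38 in the wild type and 3.98 in the knockout. Among the zinc finger genes as a group, 16 of 27 were negative and 11 positive, with 0 higher and 1 lower at an unadjusted p under 0.05, where 5.44% of all probe sets passed that mark. Their median was -0.07, and on leaving out each array in turn it stayed negative, between -0.06 and -0.02, the value nearest 0 coming without wild-type replicate 3. Without knockout replicate 2, 3 or 4 or wild-type replicate 2 it was -0.03, -0.04, -0.04 and -0.04. Zfp330, Zfp507 and Zfp39 differed by -0.18, -0.17 and -0.15, and among these 3 the groups did not overlap for Zfp507.

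Hic2, a transcriptional repressor of the BTB zinc finger class, read 6.60, 6.39, 6.56 and 6.48 in the wild type and 6.78, 6.68, 6.68 and 6.92 in the knockout, so that the groups did not overlap (0.26 ± 0.10, SE; limma's unadjusted p = 0.0189). Hes5, a Notch target that keeps neural progenitors undifferentiated, read 7.26, 6.85, 7.12 and 7.40 against 7.14, 7.66, 7.50 and 7.46 (0.28 ± 0.13; limma's unadjusted p = 0.0459). Its groups overlapped through knockout replicate 1. Hoxd3, a homeobox gene known from the patterning of the hindbrain and trunk, differed by 0.21, with means of 6.12 in the wild type and 6.34 in the knockout. Of 22 transcription factors of neurons fixed as a list, 5 were measured, 4 negative and 1 positive, with a median of -0.10 that turned to 0.02 without knockout replicate 4 and was -0.05 without knockout replicate 1. They were Klf7, which promotes axon growth, at -0.15, Elk1, a target of MAP kinases, at -0.12, Cux1, of upper-layer cortical neurons, at -0.10, Gbx2, of the thalamus, at 0.04, and 1 more between these. None of the 5 had an unadjusted p under 0.05 in limma's test, where 5.44% of all probe sets did.

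The values of some lower genes rested largely on 1 array. Mrpl20, of the large subunit of the mitochondrial ribosome, read 7.28, 7.34, 7.26 and 7.55 in the wild type and 7.16, 6.61, 7.26 and 7.15 in the knockout. Replicate 2 stood apart, and without it the difference of -0.31 shrank to -0.17. Atp5l, a subunit of the ATP synthase, read 10.31, 10.59, 10.21 and 10.39 against 10.23, 9.91, 10.20 and 10.21, and its difference of -0.24 became -0.16 without the same array. Pigbos1, which encodes a microprotein of the outer mitochondrial membrane, did not rest on it, reading 7.47, 7.65, 7.58 and 7.58 against 7.43, 7.36, 7.35 and 7.38 with no overlap (-0.19 ± 0.08, SE; limma's unadjusted p = 0.0223). Riok2, a kinase that matures the small ribosomal subunit, differed by -0.34 without overlap, from 5.76 ± 0.18 (SD, n = 4) to 5.42 ± 0.10 (SD, n = 4). Tmbim4, a Golgi protein that protects from cell death, differed by -0.17 without overlap, and AA623943, a little-studied transcript, by -0.34 with overlap.

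The fixed lists of mitochondrial, ribosomal and histone genes had medians between -0.10 and -0.04. Of 89 mitochondrial proteins 5 were measured, 1 positive and 4 negative, with a median of -0.04. Atp5l was the 1 with an unadjusted p under 0.05 in limma's test, where 5.44% of all probe sets passed that mark. The median of the 5 was -0.08 without knockout replicate 2 and -0.06 without wild-type replicate 3, with 0 positive in both cases. It was -0.02 without knockout replicate 1 or wild-type replicate 4. Uqcrb, of respiratory complex III, differed by -0.12, and Ndufa12, of complex I, and Vdac3, a channel of the outer membrane, by -0.04 and -0.02. Of 35 ribosomal protein genes 15 were positive and 20 negative, with a median of -0.05 that became -0.002 without knockout replicate 2 and -0.03 without knockout replicate 3. The lowest unadjusted p among them was that of Rpl37, of the large ribosomal subunit, at -0.23, followed by Rpl17 at -0.26 (limma's unadjusted p = 0.0484 and 0.0517). Of 9 histone genes 7 were negative and 2 positive, with a median of -0.10, where 3969 of all 8751 probe sets were negative. Of 50 probe sets that list a histone gene among several symbols, 31 were negative and 19 positive. At an unadjusted p under 0.05 in limma's test, 2 of those 50 were higher and 0 lower. Over all probe sets the shares at that mark were 3.65% and 1.79%. H4c14, a histone H4 gene, read 6.71, 6.60, 6.51 and 6.55 in the wild type and 6.22, 6.46, 6.24 and 6.41 in the knockout, without overlap (-0.26 ± 0.10, SE; limma's unadjusted p = 0.0185).

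Tmc4, a transmembrane channel-like protein, had one of the smaller p-values among the genes higher in the knockout. It read 7.12, 6.88, 7.02 and 6.94 in the wild type and 7.11, 7.14, 7.44 and 7.38 in the knockout (0.28 ± 0.10, SE; limma's unadjusted p = 0.00857). Dcpp1, a salivary gland protein, read 6.95, 6.71, 6.84 and 6.77 against 6.77, 7.26, 7.36 and 7.35, with knockout replicate 1 inside the wild-type range (0.37 ± 0.13; limma's unadjusted p = 0.0118). Mmp11, a matrix metalloproteinase, read 6.18, 5.94, 6.27 and 6.29 against 6.40, 6.29, 6.38 and 6.52 (0.23 ± 0.09; limma's unadjusted p = 0.0182). All 4 knockout values of Mmp11 lay above the wild type, the nearest pair by a margin too small to show at 2 decimals. Of the other higher genes named by their rank, the following differed by 0.17 to 0.26: Apoa2, an apolipoprotein of high-density lipoprotein, Mxra8, a matrix-remodelling surface protein, Csf2, the cytokine GM-CSF, Cd160, a receptor of natural killer and T cells, and Cstdc5, a cystatin-like protein. Astx5, a multicopy X-linked gene of the testis, differed by 0.24 in its brightest probe set and by 0.17 and 0.03 in the others. Csf2 lay between 5.62 and 5.83 in the wild type and between 5.83 and 6.07 in the knockout, so that its groups touched.

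Immune genes went both ways. H2-Q10, a secreted class I histocompatibility protein, read 6.37, 6.22, 6.05 and 6.34 in the wild type and 6.42, 6.53, 6.55 and 6.87 in the knockout. The groups did not overlap, with a difference of 0.35 (SE 0.18; limma's unadjusted p = 0.0721), and the difference after sleep deprivation was 0.56. Of the 3 other measured immune genes, H2-Q4 and H2-K1 differed by 0.16 and 0.07 and H2-T23 by -0.09. A probe set annotated to both Cd74, the invariant chain of class II antigen presentation, and Mir5107 (17350982) read 7.75, 8.23, 7.82 and 7.93 against 8.03, 8.69, 8.07 and 8.68 (0.43 ± 0.17, SE; limma's unadjusted p = 0.0181). Over the 19 probe sets that list an immune gene among several symbols, 9 were positive and 10 negative, with 2 higher and 0 lower at an unadjusted p under 0.05, where 3.65% and 1.79% of all probe sets were higher and lower at that mark. Their median of -0.05 turned to 0.004 without knockout replicate 2. The second of the 2, annotated to H2-Q7, H2-Q9 and H2-Q8 (17337120), differed by 0.23 undisturbed and by -0.24 after sleep deprivation.

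**Figure D3:**
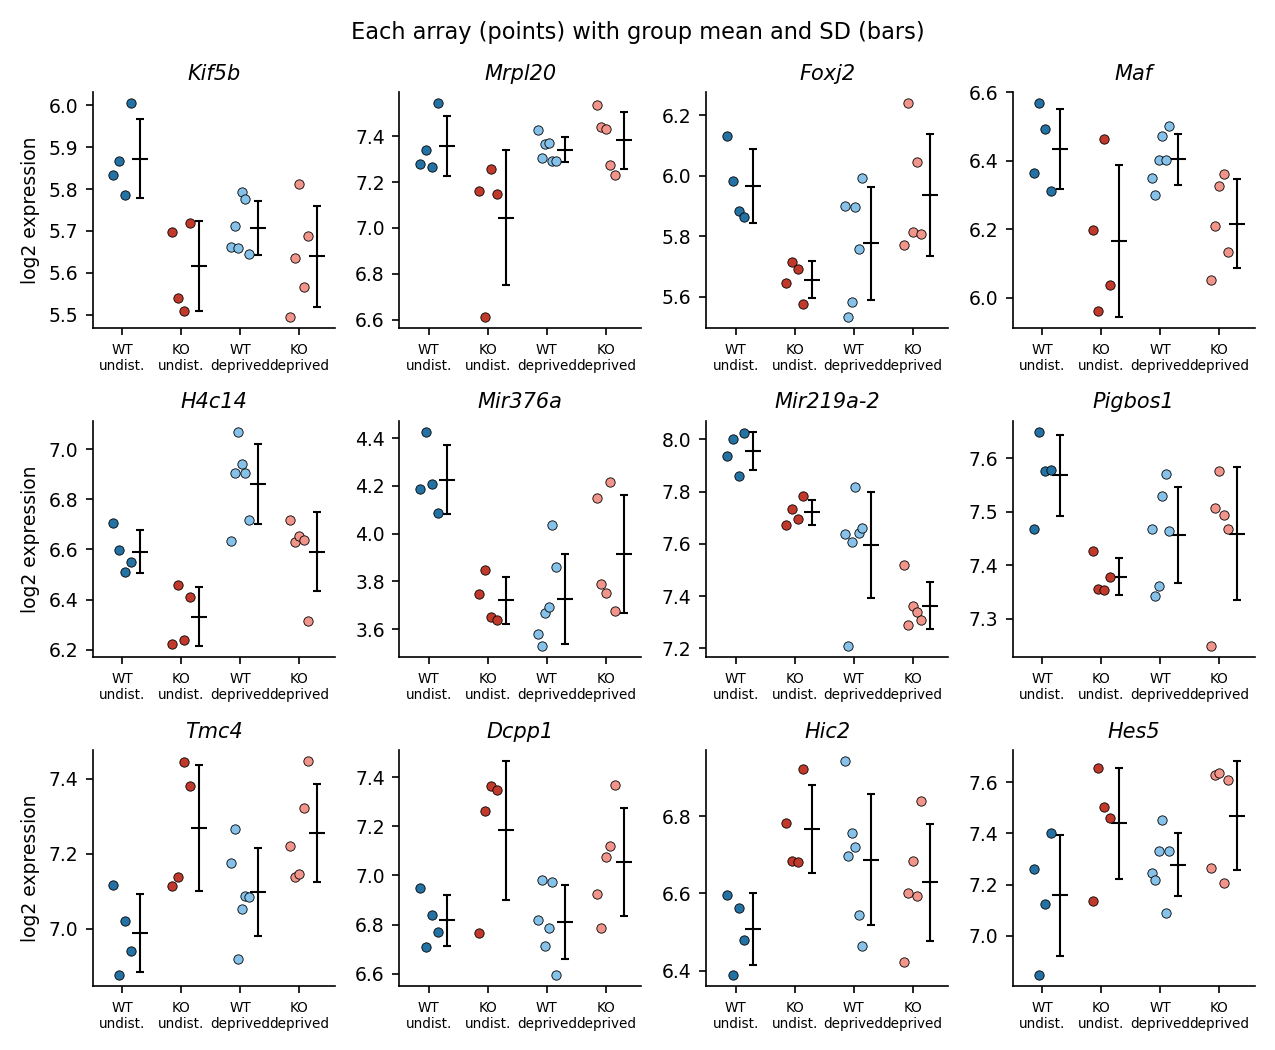
Points give the log2 expression of 12 named genes in every array of the 4 groups (4 wild-type and 4 knockout arrays undisturbed, 6 wild-type and 5 knockout arrays sleep deprived), and the bars beside them the group mean and SD. In Kif5b, Mrpl20, Foxj2, H4c14, Mir376a, Mir219a-2, Pigbos1 and Hic2 the 4 undisturbed knockout values do not overlap the wild type, and Mrpl20 shows the 1 low knockout array.

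Among microRNA genes the difference of Mir376a stood at the lower end. Mir376a, whose product carries the seed UCGUAGA shown above, read 4.19, 4.43, 4.21 and 4.08 in the wild type and 3.75, 3.85, 3.65 and 3.64 in the knockout. The groups did not overlap, and the knockout mean was 0.70-fold that of the wild type (log2 difference -0.50 ± 0.13, SE; limma's unadjusted p = 0.000725, adjusted p = 0.79). The level was low, within the dimmest 40% of probe sets, and no detection call was used here to say whether it lay above background. In the sleep-deprived groups the means were 3.73 in the wild type and 3.92 in the knockout, so that the undisturbed wild type was the 1 group above 4. The difference between its 2 genotype effects was 0.69 (limma's adjusted p = 0.18).

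Mir219a-2, a source of miR-219, which promotes the maturation of oligodendrocytes, read 7.93, 8.0002, 7.86 and 8.03 in the wild type and 7.67, 7.73, 7.69 and 7.78 in the knockout. Its groups did not overlap either (-0.23 ± 0.10, SE; limma's unadjusted p = 0.0259), and the difference after sleep deprivation was -0.23 as well. Mir3473c, about which little is known, differed by 0.33, which became 0.14 without knockout replicate 2. Mirlet7f-1, a source of the neuronal let-7f, had all 4 knockout values above the wild type at an unadjusted p = 0.0579 in limma's test, with a difference of 0.18. Over the 44 microRNA genes 15 were positive and 29 negative, and 1 was higher and 2 were lower at an unadjusted p under 0.05, where 5.44% of all probe sets passed that mark. Their median of -0.04 was -0.02 without knockout replicate 4, wild-type replicate 3 or wild-type replicate 4, with 20, 16 and 17 positive. Among the 92 probe sets that list a microRNA with other symbols, often its host gene, 31 were positive and 61 negative.

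Mir376a and Mir409 lie in the imprinted region between Meg3 and Mirg, whose long noncoding RNAs, small nucleolar RNAs and microRNAs come from the maternal chromosome and are abundant in neurons. The region was singled out after its values had been seen, so its values are a description. It held 17 distinct probe sets, 9 with 1 symbol and 8 with several, of which 16 had a negative difference in the undisturbed knockout and 1, Mir380, a positive one of 0.07. The median was -0.12 and the range -0.50 to 0.07. Over all probe sets the median was 0.01, and over the brightest of the 5 groups by level it was -0.03. Wild-type means in the region ran from 4.03 for Mir380 to 12.6 for AF357425. The 17 include probe sets 17283958 and 17278704, which list the protein-coding gene Rtl1 beside microRNAs and differed by -0.12 and -0.09. The negative count was 16 after quantile normalization and after median centring, and 14 without knockout replicate 2, where the median was -0.07.

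The larger values of the region came from all 3 kinds of RNA. Meg3 itself, a long noncoding RNA, differed by -0.04 in the probe set that names it alone and by -0.17 in one shared with Mir1906-1 and Mir1906-2, the latter from 11.2 ± 0.04 (SD, n = 4) to 11.1 ± 0.13 (SD, n = 4). The probe set of DQ267100 and Rian, the host transcript of a group of box C/D small nucleolar RNAs, read 10.39, 10.39, 10.35 and 10.41 in the wild type and 10.32, 9.97, 10.40 and 10.12 in the knockout (-0.18 ± 0.09, SE; limma's unadjusted p = 0.0428). Wild-type values lay within 0.1 of each other there and knockout values were spread, with replicate 2 the lowest. DQ267101 differed by -0.21 (limma's unadjusted p = 0.0463) and AF357425 by -0.13 without overlap, while Mir409 differed by -0.30 (limma's unadjusted p = 0.0513). After sleep deprivation 7 of the 17 were negative and 10 positive, with a median of 0.04. Neighbouring probe sets here may read parts of shared transcripts and are not independent.

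**Figure D4:**
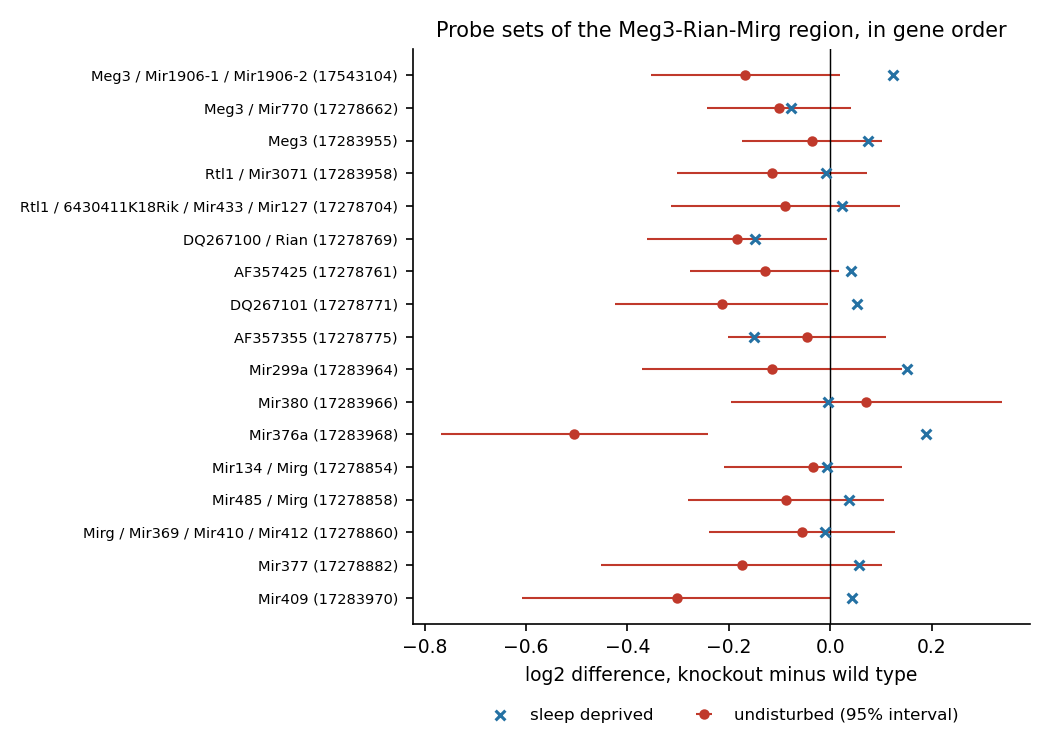
Circles give the log2 difference of the undisturbed knockout from the wild type, with limma's 95% interval, for the 17 probe sets between Meg3 and Mirg in gene order, and crosses the same difference after sleep deprivation. The circles lie left of 0 for 16 of 17, furthest for Mir376a at -0.50, whereas 10 of the 17 crosses lie right of 0.

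Small nucleolar RNAs, which guide the chemical modification of ribosomal RNA, had a negative difference in all 10 measured genes. Over all probe sets 3969 of 8751 were negative, and in the brightest of the 5 groups by level 38.0% were positive. The median of the 10 genes was -0.09, against 0.01 over all probe sets and -0.03 over that brightest group. It kept its sign under quantile normalization (-0.06) and median centring (-0.13). In each fit without knockout replicate 2 or 4, or without wild-type replicate 1 or 2, 1 of the 10 turned positive. The median was -0.05 without knockout replicate 2 and -0.15 without knockout replicate 1. Snord19 differed most, with 6.09, 6.28, 6.09 and 6.14 in the wild type and 5.76, 5.83, 5.74 and 5.69 in the knockout. The groups did not overlap (-0.40 ± 0.17, SE; limma's unadjusted p = 0.0346), and the difference after sleep deprivation was 0.37. That SE pools the spread of the undisturbed and sleep-deprived groups. Undisturbed, the SDs of Snord19 were 0.09 in the wild type and 0.06 in the knockout. After sleep deprivation they were 0.38 and 0.28. Of 24 probe sets in which a small nucleolar RNA shares its annotation with other genes, 19 were negative and 5 positive. As with the microRNAs, 0 passed the adjusted threshold in limma's test.

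Among the few genes measured around the deleted gene, none stood out. Within 5 Mb of Epha4, 0 genes were measured under 1 symbol, so its close neighbourhood was not covered by genes of their own. The 2 probe sets with several symbols there differed by -0.15 and -0.04. A knockout bred on a mixed background can carry alleles of the donor strain around the deleted gene, which makes its neighbourhood of interest, and neighbours were taken from the gene order in the RefSeq table. Within 10 Mb of Epha4 on its chromosome, 1, there were 7 measured genes, 5 positive and 2 negative with a median of 0.04, and within 20 Mb there were 14, 8 positive and 6 negative with a median of 0.03. Neither lean was kept under the scalings. In the narrower window 3 of 7 were positive after quantile normalization and after median centring, with medians of -0.004 and -0.003. In the wider one 7 and 6 of 14 were positive, with medians of 0.002 and -0.01. Without knockout replicate 3 the medians of the deposited values were 0.008 and 0.001. The narrower one was 0.06 without knockout replicate 2, and the wider one 0.01 without replicate 1 of either genotype. None of the 14 had an unadjusted p under 0.05 in limma's test, where 5.44% of all probe sets did. The smallest was that of the predicted gene Gm5258 (0.20; limma's unadjusted p = 0.0735). Of 13 probe sets with several symbols in the wider window, 1 had an unadjusted p under 0.05 in limma's test, and it lay in the narrower window too. It was that of Sp140, an interferon-inducible nuclear body protein, and Gm2427 (17214924). Its difference was -0.40 at a low level, from 4.09 ± 0.10 to 3.69 ± 0.34 (SD, n = 4 each). Per2, a component of the circadian clock, shares its probe set with 9830107B12Rik, and that probe set differed by -0.02.

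Of 36 genes that respond to glucocorticoids, heat or unfolded proteins 2 were measured under 1 symbol. Neither had an unadjusted p under 0.05 in limma's test, where 5.44% of all probe sets did. Fkbp5, the glucocorticoid-induced co-chaperone of the glucocorticoid receptor, read 7.77, 7.48, 7.72 and 7.59 in the wild type and 7.65, 7.75, 7.61 and 7.78 in the knockout. Its groups overlapped (0.06, 95% interval -0.16 to 0.27). Hspa8, the constitutive cytosolic chaperone, differed by -0.03 (-0.19 to 0.14). Pcid2, a subunit of a nuclear mRNA export complex, Gm6625 and Ndufa11, a subunit of respiratory complex I, differed by -0.06, -0.12 and 0.02, although after sleep deprivation they differed by 0.38, 0.67 and -0.47.

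Blood was read by 5 probe sets for the globin genes, each listing several. They differed by 0.23, 0.21, -0.20, -0.25 and -0.01, with limma's unadjusted p from 0.108 to 0.972. The brightest, for Hba-a2 and Hba-a1 (17248276), read 11.30, 12.04, 11.51 and 11.40 in the wild type and 12.20, 11.60, 10.99 and 11.43 in the knockout. For that probe set the SD within each genotype, 0.33 in the wild type and 0.50 in the knockout (n = 4 each), was larger than the difference of -0.01. For the probe set of Hbb-bs, Hbb-b2 and Hbb-b1 (17494228) it was smaller, with SDs of 0.15 and 0.12 (n = 4 each) against a difference of 0.21.

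Probe sets with several symbols leaned toward higher values, 35 against 10 at an unadjusted p under 0.05. After quantile normalization this became 21 higher and 19 lower, and after median centring 19 higher and 31 lower. With identical probe sets tested once, the deposited values gave 23 higher and 9 lower. The largest differences were those of a probe set for a group of predicted genes headed by Gm13288 (17415353), from 5.20 ± 0.11 to 5.66 ± 0.36 (SD, n = 4 each), and of one for Gm38425 and the adaptor gene Gab3 (17542727), from 4.85 ± 0.15 to 5.30 ± 0.26. The first did not overlap between genotypes and the second did. Others headed by Pramel34, H2al1b, a testis histone variant, Gm6455 and the vomeronasal receptor Vmn1r62 differed by 0.26 to 0.32. On the lower side, the probe set of Ovgp1 and Wdr77 (17401447) differed by -0.33 without overlap, that of Mir592 and its host Grm8, a presynaptic glutamate receptor (17465296), by -0.29, and that of Evi2a and Evi2b (17266590) by -0.19 without overlap. Probe sets for Trim12c and Trim5, for Hmgn2 and related sequences and for Sp140 and Gm2427 differed by -0.20, -0.25 and -0.40.

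Most of the larger differences belonged to probe sets with no symbol. The largest of all was that of 17338468, which read 5.54, 5.16, 5.13 and 4.89 in the wild type and 4.67, 4.22, 3.79 and 3.87 in the knockout. The groups did not overlap, and the knockout mean was 0.49-fold that of the wild type (-1.04 ± 0.25, SE; limma's unadjusted p = 0.000467, adjusted p = 0.79). After sleep deprivation the means were 4.37 in the wild type and 4.63 in the knockout, a difference of 0.26. The smallest p was that of 17267654, which read 5.47, 5.82, 5.62 and 5.49 against 5.95, 6.17, 6.00 and 6.12 (0.46 ± 0.10; limma's unadjusted p = 0.000143, adjusted p = 0.79). Its difference after sleep deprivation was -0.30, and the difference between the genotype effects was -0.76 (SE 0.13; limma's adjusted p = 0.023). The other 4 named by the same rule, 17279986, 17262572, 17352880 and 17392121, differed by 0.40, 0.38, -0.48 and -0.66.

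The genotype difference after sleep deprivation, which was measured in other arrays, gave a view of the same probe sets. Of the 476 probe sets at an unadjusted p under 0.05 undisturbed, 221 (46.4%) had the same direction after sleep deprivation, against 3941 of all 8751 (45.0%). Of the 476, 33 had the same direction and 40 the opposite one at an unadjusted p under 0.05 after sleep deprivation, where 1345 of all probe sets passed that mark (15.4%). Across the 8751 probe sets Pearson's r between the 2 differences was -0.14 and Spearman's rho -0.14. These are descriptions across probe sets that share arrays and are not independent replicates.

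Among the 47 probe sets with 1 symbol, 19 kept their direction, and 7 of those had an unadjusted p under 0.05 in both conditions, against 2 with opposite directions. Over all 8751 probe sets 558 had the same direction and 787 the opposite one at an unadjusted p under 0.05 after sleep deprivation, whatever their undisturbed p. The 2 opposite ones were Snord19 at -0.40 undisturbed and 0.37 after sleep deprivation and Gm3286, a predicted gene chosen after its values were seen, at 0.19 and -0.20. The 7 genes differed as follows undisturbed and after sleep deprivation: Gm4701, a predicted gene, by 0.26 and 0.21, Dcpp1 by 0.37 and 0.24, Csf2 by 0.26 and 0.25, and Apoa2 by 0.17 and 0.15. Maf differed by -0.27 and -0.19, H4c14 by -0.26 and -0.27, and Mir219a-2 by -0.23 and -0.23. None of these had an adjusted p under 0.05 in either condition in limma's test, and the smallest, that of H4c14 after sleep deprivation, was 0.12. Kif5b differed by -0.07 after sleep deprivation, and Foxj2, Riok2 and Snord19 by 0.16, 0.22 and 0.37, opposite to their undisturbed differences. The test of the difference between the genotype effects gave adjusted p-values of 0.24, 0.23 and 0.22 for those 3 in limma.

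**Figure D5:**
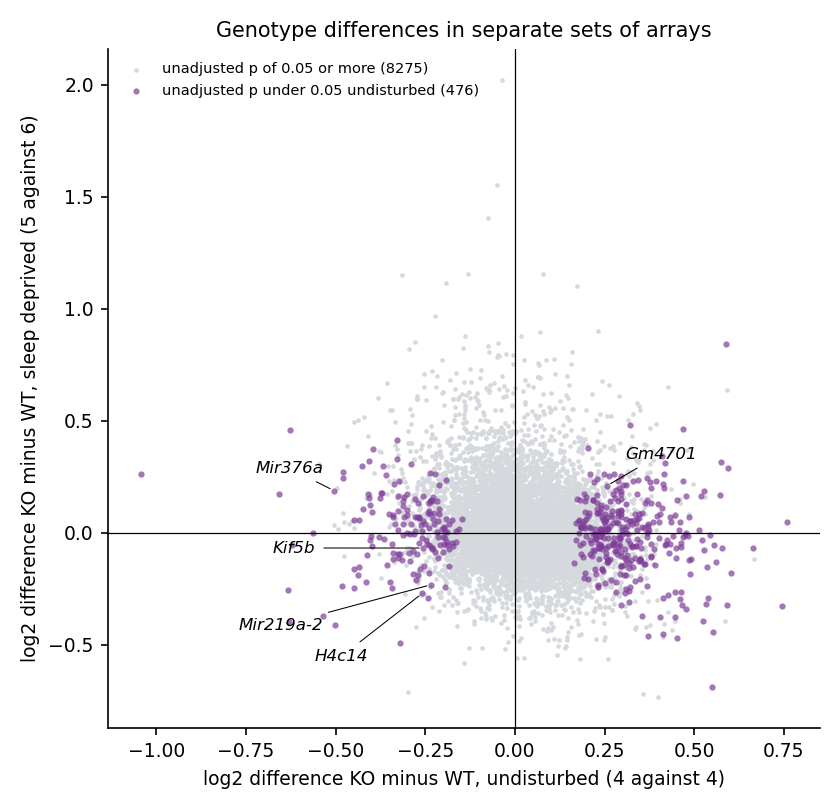
Each point is 1 of 8751 probe sets: the horizontal axis gives the log2 difference of knockout from wild type in undisturbed mice and the vertical axis the same difference in sleep-deprived mice, measured in other arrays. The 476 probe sets at an unadjusted p under 0.05 undisturbed, in purple, spread above and below 0 on the vertical axis, with 46.4% keeping their direction.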

How the data were processed

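Per the labels' protocols, total RNA of the forebrain was isolated with a kit for lipid-rich tissue and biotin-labelled. It was read on the Affymetrix Mouse Gene 2.0 ST array. The deposited values are log2 expression per probe set and array, and the submitters' processing notes name RMA, oligo and limma without versions. In which order these were applied, and to which genome build probes were assigned, is not stated in the labels. Of 8751 probe sets 346 repeated the values of another, and lists counted them once. Precision is set by the number of arrays, as there is no read depth.

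Group means of all 19 arrays were fitted with limma 3.58.1 in R 4.3.3 without covariates, tested on simulated data first, and adjusted p-values (Benjamini-Hochberg, all probe sets) were held against a threshold of 0.05. Genes were named only from probe sets with 1 symbol, using the one with the highest mean, and 1045 of 1121 were found by identifier in the RefSeq gene table of GRCm38.p6. Ranked by p, the text names the first 12 genes of each direction, 5 of each among predicted and small RNA genes, 6 probe sets of each with several symbols, 3 of each with none, up to 4 genes per list and some genes of the earlier results. The members, lists and tests were chosen with earlier results of these data known. Plots used matplotlib 3.10.9 in Python 3.11.15. Alternatives changed which arrays were fitted, added a replicate block, and varied variance models, array weights, scaling, filters, the threshold and leaving out each control array.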

Additional observations from a re-analysis of the deposited data

Results flagged for a closer look

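Within groups of 4 arrays, 9 of 256 tested groups (3.52%) among the named genes and probe sets held an array far from the other 3, where chance gives about 1 in 20. Knockout replicate 2 was such an array for Mrpl20 (6.61), Atp5l (9.911) and Cfl1 (11.49). Knockout replicate 4 was such an array for Gm21136 (6.571), Riok2 (5.269) and Vmn1r148 (5.753), a vomeronasal receptor. In the wild type, replicate 4 stood apart for AA623943 (4.482), replicate 2 for the histone H3 probe set 17285680 (7.032) and replicate 1 for the Hmgn2 probe set 17510494 (6.904).

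In 2 named probe sets without a symbol the genotype effect differed between sleep-deprived and undisturbed mice by limma's test of the difference itself. For 17267654 that difference was -0.7579 (adjusted p = 0.023), with 0.46 undisturbed and -0.30 after sleep deprivation. For 17529227 it was 2.058 (adjusted p = 0.0055), with -0.04 undisturbed and 2.02 after sleep deprivation. Undisturbed, its means were 5.12 ± 0.23 in the wild type and 5.08 ± 0.20 in the knockout (SD, n = 4 each).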

How the results depend on the processing

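Under each of 20 other settings, and at an adjusted threshold of 0.1, limma called 0 probe sets, with the smallest adjusted p between 0.117 and 0.939. At an unadjusted p under 0.05 the count was 383 to 650 in the settings that tested the probe sets as a whole or with identical ones once, and 383 to 544 on leaving out each control array. Fewer probe sets were tested without the dimmest 40% (290), with 1 symbol only (63) and with 1 or several symbols (133). The replicate numbers did not pair the arrays, since deviations of same-numbered arrays correlated at 0.0084 to 0.074 and 1 of 4 correlated best with its own number. With the replicate block the count was 427 on 19 arrays and 602 on the 8 control arrays, with 0 calls. The share with the same direction after sleep deprivation was 45.18% to 46.43% under the scalings tried. Of 2495 values of named genes and probe sets, 46 turned sign, in 20 genes or probe sets, and 0 passed the threshold. With array weights the sign turned for Ndufa11 -0.039, Slc32a1 -0.00654, Grin2d 0.037 and probe set 17248276 0.078. With quantile normalization the sign turned for Map2 0.021, Hspa8 0.036, Vdac3 0.015, Ndufa11 -0.00670, Slc32a1 -0.021 and probe set 17248276 0.023. With median centring the sign turned for Anks1 -0.00109, Ndufa11 -0.022 and Slc32a1 -0.030. Other probe sets of a gene gave the other sign for Gm10499 (-0.000300), Hspa8 (0.011) and Zfp507 (0.072). Leaving out 1 array turned the sign, over the ranges given, for Mup-ps12 (-0.25 to 0.025), Slx (-0.27 to 0.060), Cfl1 (-0.0044 to 0.068), Cux1 (-0.25 to 0.046), H2-K1 (-0.051 to 0.15), Mir380 (-0.041 to 0.12), Shank3 (-0.019 to 0.093), Anks1 (-0.0083 to 0.068), Hspa8 (-0.059 to 0.0059), Vdac3 (-0.058 to 0.0017), Ndufa11 (-0.079 to 0.10), Slc32a1 (-0.058 to 0.080), Chn1 (-0.054 to 0.025), Grin2d (-0.077 to 0.055), probe set 17529227 (-0.14 to 0.023), probe set 17481232 (-0.40 to 0.0012) and probe set 17248276 (-0.22 to 0.18). The cause of these turns was not tested. A difference whose interval included 0 was not detectable with 4 arrays a group.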

Other observations

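Families that are chiefly active outside the brain also had values. Of 37 olfactory and vomeronasal receptor genes, 25 were positive and 12 negative, with a median of 0.04 that became 0.01 after quantile normalization and lay just below 0 after median centring and without knockout replicate 3 or wild-type replicate 4, and 0 had an unadjusted p under 0.05 in limma's test. Of 59 probe sets listing several such receptors, 44 were positive and 15 negative, with 5 higher and 0 lower at an unadjusted p under 0.05 in limma's test, where 3.65% and 1.79% of all probe sets were higher and lower at that mark. Under quantile normalization 38 were positive and 21 negative, and under median centring 36 and 23, and their median of 0.08 became 0.03 and 0.04. Without knockout replicate 3 it was 0.03. The X-linked and other reproductive families (Ssxb, Rhox, Slx and their kin) had 3 positive and 6 negative genes, which became 5 and 4 without wild-type replicate 4. Their 41 probe sets with several symbols were 30 positive and 11 negative, where 4782 of all 8751 probe sets were positive. Under quantile normalization these 41 were 27 and 14, and under median centring 25 and 16. Their median of 0.06 became 0.04 and 0.02. None of these genes or probe sets had an unadjusted p under 0.05 in limma's test, where 5.44% of all probe sets did. In Ssxb8, of a family expressed in testis, the difference was 0.15 undisturbed and 0.66 after sleep deprivation, and in Vmn1r148 it was 0.17 and 1.10.

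Predicted genes gave some of the larger values among named transcripts. Gm15114 read 3.79, 3.77, 3.49 and 4.13 in the wild type and 3.00, 3.46, 3.36 and 3.58 in the knockout (-0.45; limma's unadjusted p = 0.00249), at a level near the bottom of the scale. Gm21136 read 6.40, 6.21, 6.57 and 6.24 against 6.80, 6.77, 6.77 and 6.57 (0.37; limma's unadjusted p = 0.00383). The groups of Gm15114 overlapped. For Gm21136 the highest wild-type value and the lowest knockout value were both 6.57, so that its groups touched. The others named by the same rule were 4933401D09Rik (-0.23) and Gm12592 (-0.21), and Gm4701 (0.26), Gm10499 (0.24), Gm4129 (0.20) and Gm3143 (0.17), of which Gm4701 alone did not overlap.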
